A study of Mus musculus with 20 samples.

Results

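The cells described here still carried RNA of the endoderm factors Gata4 and Gata6 after 28 days of induced reprogramming. No RNA of 3 pluripotency genes was detected in them. They were chosen from the 2 Day 28 libraries by 3 conditions. A cell had at least 2000 UMIs (unique molecular identifiers, each standing for 1 captured RNA molecule), at least 2 UMIs of Gata4 and Gata6 together, and no UMI of Pou5f1, Nanog or Zfp42. The rule kept 2291 cells, 1714 in replicate 1 and 577 in replicate 2, out of 7267 Day 28 cells with 2000 UMIs and 134279 cells in the 20 libraries of the series. That is 31.9% and 30.4% of the deep enough cells of the libraries, which are shares of sorted and recombined cells and not of the culture. A further 1709 and 764 Day 28 cells met the limits on depth and Gata UMIs but had a UMI of the pluripotency genes. Their median depth was 20790 and 32690 UMIs, against 17371.5 and 26901 in the chosen cells. A count of 0 UMIs does not show that an RNA is absent, and the part of depth in the choice was not tested. Cells chosen by the same rule from XEN, Day 7 and Day 14 served for comparison and numbered 10839, 3979 and 6237.

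The study followed XEN cells, a stem cell line of the extraembryonic endoderm, on their way to induced pluripotent stem (iPS) cells by scRNA-seq. The labels give 1 line, 3F-4 XEN, for all 8 libraries compared here, with 3 alterations that all groups share, XEN (Day 0) included. Col1A1TetO-OKSmCh/TetO-OKSmCh is the cassette of Oct4, Klf4, Sox2 and mCherry, R26M2rtTA/M2rtTA the activator through which doxycycline switches it on, and Oct4-GFPTg/Tg a reporter of pluripotency. Cells of the later groups, Day 7 to Day 28, were treated with doxycycline for 2 days, sorted for mCherry and kept on mitotically inactive fibroblast feeders in serum and LIF with ascorbic acid, a GSK3 inhibitor and doxycycline, while XEN cells had the same feeders and medium without doxycycline. Before capture, these reprogramming cells were sorted into subpopulations by SSEA-1 and Oct4-GFP and mixed again after a stronger trypsin treatment, and XEN cells were not sorted. Time in reprogramming, sorting and dissociation therefore cannot be told apart between XEN and Day 28. The difference in sex-linked RNA between these groups, described below, cannot be told apart from them either. XEN and Day 28 belonged to 1 sequencing project, and Day 7 and Day 14 to another. The study describes the 2 libraries of each group as technical duplicates, so that SDs and p-values measure the spread between these libraries, which may be technical. The rule was set with earlier results of these data in view, and Gata4, Gata6 and the 3 pluripotency genes were left out of all tests. The cassette encodes Oct4, the product of Pou5f1, and its RNA was not told apart from that of the endogenous gene. Cassette RNA counted as Pou5f1 would remove cells given doxycycline and not XEN cells, and its part in the choice was not tested.

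The chosen cells of a library held between 17110976 and 109415743 UMIs in all, with 32312340 and 17110976 at Day 28, and the median cell had 17371.5 and 26901 UMIs at Day 28 against 15596 and 20935 in XEN. The share of mitochondrial UMIs in the median cell was 3.44% and 3.63% at Day 28, above the 2.00% and 1.496% of XEN. Sex-linked RNA also differed. A Y-linked UMI was found in 3.97% and 0.52% of the Day 28 cells and in 28.1% and 29.4% of the XEN cells, and a UMI of Xist, the RNA of the inactive X chromosome, in 23.5% and 17.2% against 0.54% and 0.33%. The 2 Day 28 libraries also differed from each other in makeup, as the clusters below show, and whether both came from 1 culture is not given in the sources used here. The part of these differences in the results was not tested beyond the values given with them.

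As the rule chose the cells by Gata4 and Gata6, their levels are given as a description. Gata4 stood at 118.62 and 113.79 CPM (counts after each library is brought to the same total) and Gata6 at 156.01 and 188.36 CPM in the Day 28 cells, and the median cell had 4 and 8 UMIs of both together, against 8 and 8 in XEN. These UMIs do not compare levels, as the median depth was 17371.5 and 26901 UMIs at Day 28 and 15596 and 20935 in XEN. At the edge of the rule, 334 and 36 cells entered with just 2 such UMIs, and 339 and 50 cells with 1 stayed outside. Sparc, a secreted glycoprotein of basement membranes that the rule did not use, was found in nearly every cell. Its level was 5904 and 6641 normalised CPM in XEN, 4109 and 6191 at Day 7, 5406 and 5797 at Day 14 and 5739 and 6704 at Day 28 (TMM-scaled, as are all levels given per gene below unless called unscaled). The XEN and Day 28 libraries overlapped, with a log2 fold change of -0.01 (SE 0.27, adjusted p = 0.978 by edgeR's quasi-likelihood test). Over all 13558 genes tested, 2960 (21.8%) were called different between Day 28 and XEN, 1883 higher (13.9%) and 1077 lower (7.94%), where calls needed adjusted p-values below 0.05 together with a change of 1 or more, up or down, on the log2 scale. Between Day 28 and Day 14, 36 genes were called (0.266%), 31 higher (0.229%) and 5 lower (0.0369%), and between Day 28 and Day 7, 1119 (8.25%). These shares are the background for every count below, and all 3 comparisons use the same Day 28 libraries and 1 estimate of spread. Genes near 0 in XEN, such as Batf, Fgb and Gata5 below, could pass the filter on low counts only through the later groups. Against XEN such genes could be called only as higher, so their calls support no direction of a list.

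Gata4 and Gata6 are zinc finger factors that set up and hold the primitive endoderm, the layer from which visceral and parietal endoderm of the yolk sac form. Parietal endoderm secretes the thick basement membrane of Reichert, and visceral endoderm takes up and transports nutrients. AP-1 is a family of leucine zipper factors, in which Jun proteins pair with each other or with Fos, Atf or Batf proteins. Many of its genes are immediate-early genes, whose RNA rises within minutes of growth factors, stress or handling of cells, and AP-1 is known to hold open enhancers of differentiated cells during reprogramming.

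Promoters of the AP-1 genes are shown because such genes carry sites through which they answer signals, and 4 of those described below follow, each as the 120 bases before the annotated start, 5′ to 3′ on the strand of the gene (RefSeq, GRCm38.p6). Capitals mark TGACG, the core of the cyclic AMP response element, on either strand, or TGACATCA, the variant of the AP-1 site for which the Jun promoter is known.
Jun, chr4:95052223-95052342, minus strand: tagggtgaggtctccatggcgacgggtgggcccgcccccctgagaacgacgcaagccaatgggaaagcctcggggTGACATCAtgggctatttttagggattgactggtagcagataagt
Fos, chr12:85473770-85473889, plus strand: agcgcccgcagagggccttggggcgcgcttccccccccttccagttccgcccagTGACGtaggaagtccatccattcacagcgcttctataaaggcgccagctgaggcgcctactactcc
Fosb, chr7:19310046-19310165, minus strand: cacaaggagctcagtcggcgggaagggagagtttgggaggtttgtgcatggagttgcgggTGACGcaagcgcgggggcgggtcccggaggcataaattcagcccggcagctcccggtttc
Atf3, chr1:191183334-191183453, minus strand: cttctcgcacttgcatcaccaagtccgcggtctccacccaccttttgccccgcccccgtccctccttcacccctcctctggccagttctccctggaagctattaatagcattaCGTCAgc
Both strands of the 250 bases before each start were searched. TGACG occurred in 7 of the 13 AP-1 genes matched in the table (all of the 14 but Fosl1), namely Fos, Fosb, Junb, Atf3, Batf, Mafg and Mafk, and in 17.86% of all 27025 promoters, and TGACATCA in Jun alone of the 13 and in 3.016% of all. The full element TGACGTCA, which contains TGACG and is held by 1.624% of all promoters, and the canonical AP-1 site TGAGTCA, held by 4.429%, were in none of the 13. A match describes these letters and not a bound site.

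Of the 14 tested AP-1 genes, 5 rose between XEN and Day 28 (Jun, Fos, Fosb, Junb and Batf), 1 fell (Fosl1) and 8 were not called. Of all genes, 13.9% rose and 7.94% fell. The list median was 0.56 on the log2 scale against -0.02 over all genes. Jun, the central partner of AP-1 dimers, stood at 60.1 and 78.7 CPM in XEN, 115 and 159.7 at Day 7, 224 and 384 at Day 14 and 537 and 459.8 at Day 28. Both Day 28 libraries lay above all others. Its log2 fold change was 2.84 against XEN (SE 0.32, adjusted p = 0.000155), 1.86 against Day 7 (adjusted p = 0.00521) and 0.71 against Day 14 (SE 0.30, adjusted p = 0.429), so that the rise beyond Day 14 did not pass the test. Fos, which dimerizes with Jun proteins, was at 15.5 and 20.4 CPM in XEN, 52.9 and 65.9 at Day 7, 66.9 and 178 at Day 14 and 395 and 366 at Day 28, again without overlap between Day 28 and any other group. The log2 fold change against XEN was 4.41 (SE 0.43, adjusted p = 6.93e-05). Fosb followed with 8.76 and 18.2, 45.5 and 57.1, 83.7 and 169 and 183 and 232 CPM in the same order and a log2 fold change of 3.94 against XEN (SE 0.43, adjusted p = 0.000126). Junb was at 43.2 and 31.1 CPM in XEN and 127 and 94.5 at Day 28, a log2 fold change of 1.57 (SE 0.33, adjusted p = 0.00516) that fell to 1.35 and was no longer called without XEN replicate 2. Batf, a partner of Jun proteins best known in lymphocytes, was close to 0 in XEN at 0.00923 and 0.0272 CPM, and low at Day 28 at 1.92 and 1.51 CPM, where it was called higher. It could pass the filter on low counts only through the later groups.

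Other AP-1 genes moved differently. Atf3, a stress-induced member, was at 95.5 and 193 CPM in XEN, 73.9 and 83.3 at Day 7, 58.7 and 114 at Day 14 and 221 and 262 at Day 28. The Day 28 libraries were the highest, but the XEN duplicates differed from each other, and the log2 fold change of 0.74 against XEN did not pass (SE 0.36, adjusted p = 0.147), while that of 1.62 against Day 7 did (adjusted p = 0.0218). Without XEN replicate 2 Atf3 was called higher than in XEN (1.33, adjusted p = 0.0487). Fosl1, a Fos relative induced by sustained ERK signalling, was low throughout, at 1.06 and 3.93 CPM in XEN and 0.278 and 0.28 at Day 28 (log2 fold change -3.15, adjusted p = 0.0137), a call lost without XEN replicate 2 (-1.93), Day 28 replicate 1 (-3.15) or Day 28 replicate 2 (-3.16). Fosl1 was not called in cells thinned to 2000 UMIs either (-2.11). Jund at 40.2 and 93.9 and 71.2 and 168 CPM, Fosl2 at 13.4 and 14.9 and 15 and 18.6 CPM and the small Maf gene Mafg at 55 and 59.8 and 31.3 and 40.1 CPM were not called between XEN and Day 28. Against Day 7, 8 of the 14 were higher (Fos, Fosb, Fosl2, Jun, Atf3, Batf, Batf3 and Maff) and none was lower by this test, beside 5.27% and 2.99% of all genes (1 was lower at an unadjusted p under 0.05 and 1 by DESeq2). Against Day 14 edgeR called none of the 14, beside 0.266% of all genes, while 5 were higher at an unadjusted p under 0.05 and DESeq2 called 2 higher.

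**Figure D1:**
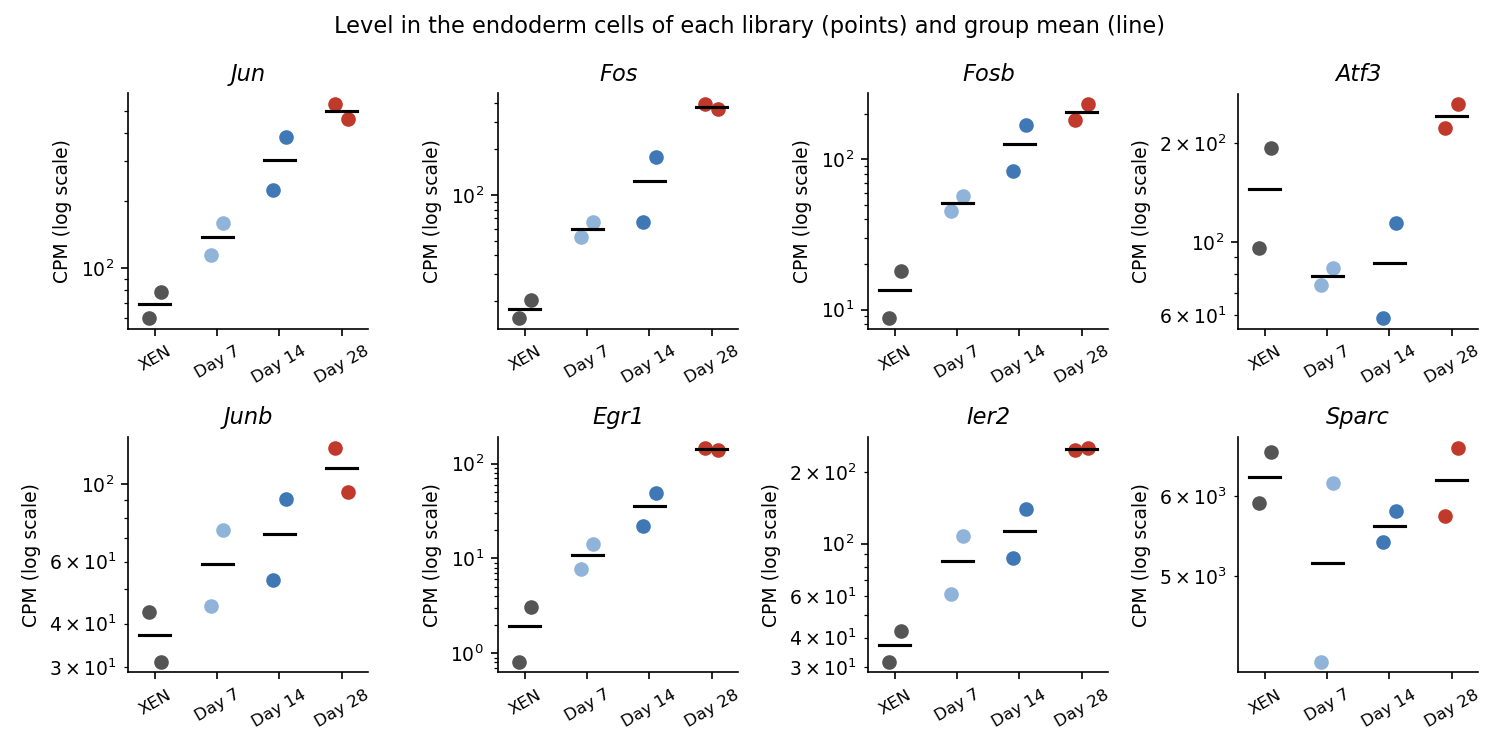
Level of 6 AP-1 and immediate-early genes, Ier2 and Sparc (TMM-scaled CPM, log scale, ranges differ between panels) in the endoderm cells of each of the 8 libraries (points), with the mean of the 2 libraries of a group (line). Both Day 28 libraries lie above all others for Jun, Fos, Fosb, Atf3, Junb, Egr1 and Ier2, and for Sparc the groups overlap.

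The unscaled CPM of 8 AP-1 genes (Jun, Junb, Jund, Atf3 and the 4 Fos genes) summed in each library gave 302.19 and 457.09 in XEN, 388.26 and 470.48 at Day 7, 559.38 and 1110.5 at Day 14, and 1552 and 1671.7 at Day 28. The means were 379.64 ± 109.53 CPM in XEN and 1611.8 ± 84.618 at Day 28 (SD, n = 2 libraries each), and no test of the sum was run, since an exact permutation of 2 against 2 libraries cannot reach a p of 0.05. The Day 28 values were above all others. Among Day 28 cells outside the rule, those with 2 or more UMIs of the 3 pluripotency genes and none of Gata4 or Gata6 had sums of 313.06 and 251.76 CPM, and those with UMIs of both programs 1092.2 and 1001.9. Cells with no UMI of the 5 genes of the rule had 1628.6 and 957.78 CPM, so that in replicate 1 they lay above the endoderm cells. Cells with 2 Gata UMIs, just inside the rule, had 1842.3 and 1709.7 CPM, and cells with 1, just outside, 1811.2 and 1085.5. As these sets of cells were divided by UMIs of the genes of the rule, the values are a description.

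The AP-1 sum varied with depth and with mitochondrial share inside each library. From the shallowest to the deepest quartile of cells it went from 2969 to 983.5 CPM in Day 28 replicate 1 and from 2553 to 1223 in replicate 2, against 322.9 to 285.2 and 575.7 to 383.6 in the XEN libraries. From the lowest to the highest quartile by mitochondrial share it went from 1279 to 2119 CPM and from 1186 to 2088 at Day 28, and from 265.4 to 374.2 and 407.5 to 617.0 in XEN. Each of the 4 quartiles of both Day 28 libraries, by depth or by mitochondrial share, was above every quartile of both XEN libraries. Quartiles of Day 14 overlapped those of Day 28. In Day 14 replicate 2 the sum went from 1539 to 830.4 CPM from the shallowest to the deepest quartile. Its lowest quartile by mitochondrial share had 1316 CPM, above the 1279 and 1186 of Day 28. Restricted to cells under 2.5% mitochondrial UMIs, which left 407 and 90 Day 28 cells, the mean sum was 1234.4 CPM at Day 28 and 363.57 in XEN, and Jun, Fos, Fosb and Junb remained called with log2 fold changes of 2.64, 4.18, 3.78 and 1.16.

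**Figure D2:**
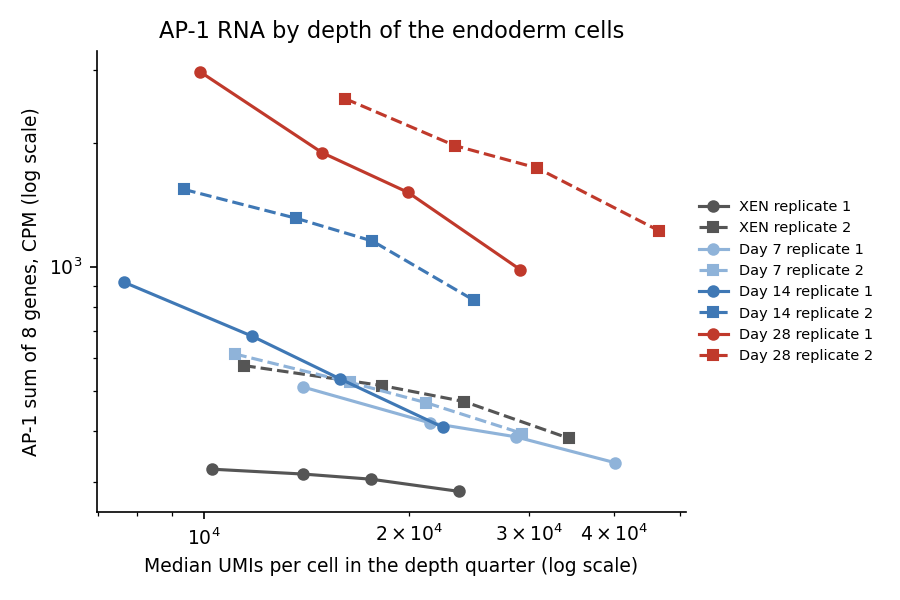
Summed CPM of 8 AP-1 genes (unscaled, log scale) against the median UMIs per cell (log scale) in the 4 depth quartiles of the endoderm cells of each library. Each line falls with depth, and the 2 Day 28 lines run from 2969 to 983.5 and from 2553 to 1223 CPM, above the XEN lines at every point.

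The share of cells with a Jun UMI differed as the level did. With each cell thinned to 2000 UMIs, a Jun UMI was found in 56.7% and 54.1% of the Day 28 cells and in 11.7% and 14.4% of the XEN cells, and in 15.2% and 10.3% of the pluripotency-marked Day 28 cells. For Fos the shares were 43.9% and 42.3% against 3.48% and 3.99%, and without thinning they were 81.4% and 86.1% against 20.8% and 26.5%. Cells over 1000 CPM of the AP-1 sum made up 58.2% and 66.2% of the Day 28 cells, 18.1% and 46.4% of the Day 14 cells and 2.13% and 8.61% of the XEN cells. Neither summed counts nor these shares, which move with the mean level, tell more cells with a gene from more RNA per cell.

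Other immediate-early genes moved in both directions. Of 19 tested, 6 rose against XEN (Egr1, Egr2, Ier2, Dusp1, Zfp36 and Zfp36l1) and 3 fell (Ier5, Ier5l and Nr4a3), with a list median of 0.20. Egr1, a zinc finger factor induced by growth factors, was at 0.812 and 3.05 CPM in XEN, 7.65 and 14 at Day 7, 22.2 and 48.9 at Day 14 and 147 and 139 at Day 28. Day 28 did not overlap any other group, and the log2 fold change against XEN was 6.21 (SE 0.64, adjusted p = 9.93e-05), among the 10 largest rises of well-expressed genes. Egr1 was not restricted to these cells, since the pluripotency-marked cells of the Day 28 libraries had 129 and 81 unscaled CPM beside 147 and 145. Ier2 rose from 31.6 and 42.6 CPM in XEN to 248 and 255 at Day 28 (log2 fold change 2.76, SE 0.34, adjusted p = 0.000238). Klf6 and Btg2, at 103 and 137 and 96.6 and 133 CPM in XEN and 215 and 225 and 251 and 193 at Day 28, stayed under the fold required against XEN (log2 fold changes 0.87 and 0.95) with all libraries. Both passed in cells thinned to 2000 UMIs (1.09 and 1.22) and without XEN replicate 2 (1.09 and 1.19), and Btg2 also without Day 28 replicate 2 (1.12) and without cells with a Y-linked UMI (1.01). Against Day 7, 9 of the 19 were higher, Klf6 and Btg2 among them, and 1 was lower.

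Chaperone and stress genes were also called in shares near the 21.8% of all genes. Of 13 heat shock genes, Hspa8 and Hspb1 rose and Cryab fell, and the other 10 were not called. The call of Hspb1 was lost without XEN replicate 1 (1.20), Day 28 replicate 1 (1.98) or Day 28 replicate 2 (1.53). Cryab, a small heat shock protein that guards against aggregation, went from 1424 and 1995 CPM in XEN to 138 and 198 at Day 28, with Day 7 at 449 and 280.4 and Day 14 at 168 and 124, a log2 fold change of -3.35 (SE 0.34, adjusted p = 9.64e-05). Hspb2, its relative and genomic neighbour, fell from 67.9 and 122 to 9.21 and 15.9 CPM (log2 fold change -2.93, adjusted p = 0.000594). The cytosolic chaperones Hsp90aa1 (739 and 1514 and 1227 and 692 CPM in XEN and Day 28) and Hsp90ab1 (1847 and 2487 and 3413 and 2123 CPM) overlapped between groups. Of 15 genes of the unfolded protein and integrated stress responses, Asns and Chac1 rose and Ddit4 fell. The call of Chac1 was lost without XEN replicate 1 (2.58) or Day 28 replicate 2 (1.63) and in cells thinned to 2000 UMIs (1.52). That of Ddit4 was lost without either XEN or Day 28 library or Day 7 replicate 2 (-1.32 to -0.68). A replicate block (-0.98), RLE factors (-1.015), thinning to 2000 UMIs (-0.99) or a limit of 4 Gata UMIs (-1.03) also ended the call of Ddit4. Asns, which makes asparagine, was at 34 and 24.4 CPM in XEN and 88.1 and 105 at Day 28 (log2 fold change 1.72, adjusted p = 0.00126) but higher still at Day 7, at 213 and 312 CPM. The chaperone Hspa5 of the endoplasmic reticulum, at 382 and 257 CPM in XEN and 502 and 334 at Day 28, was not called.

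Targets of p53, the factor that stops the cell cycle after damage, were lower. Of 10 tested, 8 fell against XEN (Cdkn1a, Mdm2, Ccng1, Trp53inp1, Phlda3, Gtse1, Eda2r and Aen) and none rose, even at an unadjusted p under 0.05 or by DESeq2, beside 7.94% of all genes falling, and the list median was -1.61. Cdkn1a, the cyclin-dependent kinase inhibitor p21, stood at 315 and 531 CPM in XEN, 312 and 331 at Day 7, 114 and 159.9 at Day 14 and 137 and 89.3 at Day 28. Day 7 overlapped with XEN, and Day 14 with Day 28. Its log2 fold change against XEN was -1.91 (SE 0.32, adjusted p = 0.00158). Phlda3, which restrains Akt, fell from 221 and 326 to 68.3 and 60.5 CPM (log2 fold change -2.09, adjusted p = 0.000415), and the receptor gene Eda2r from 26.4 and 28.8 to 5.31 and 5.88 CPM (log2 fold change -2.31, adjusted p = 8.29e-05). Bax, the pore-forming death protein, was at 534 and 595 CPM in XEN and 450.3 and 357 at Day 28 and was not called. Against Day 7, 3 of the 10 were lower, and against Day 14 none was called by edgeR or DESeq2 or had an unadjusted p under 0.05.

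Endoderm factors and receptors moved in both directions, with Sox17 uncalled. Of 11 endoderm transcription factors besides the rule genes, Klf5, Gata5 and Hhex rose and Sox7 fell, Gata5 at under 1 CPM in every library and no longer called without Day 28 replicate 1 (4.16). Sox17, a driver of primitive endoderm, was at 258 and 257 CPM in XEN, 117 and 259 at Day 7, 179 and 256 at Day 14 and 239 and 264 at Day 28, all overlapping (log2 fold change -0.03 against XEN, SE 0.34, adjusted p = 0.948). Its relative Sox7 was at 89.7 and 55.1 CPM in XEN, 6.84 and 3.59 at Day 7, 12.3 and 12.5 at Day 14 and 25.9 and 15.3 at Day 28. It was thus lower at Day 28 than in XEN (log2 fold change -1.80, adjusted p = 0.00353) and higher than at Day 7 (log2 fold change 2.00, adjusted p = 0.00768). Klf5, which acts in the trophoblast, the epiblast and endoderm, went from 71.8 and 45.3 to 188 and 277 CPM (log2 fold change 1.99, adjusted p = 0.00737), a call lost without XEN replicate 2 (1.69) or Day 28 replicate 2 (1.68). Foxq1 was not called at 76.9 and 100.2 and 94 and 109 CPM. Of 13 receptors and adaptors of primitive endoderm, Amn, Cdh1 and Lamp2 rose and Cubn and Fgfr2 fell. Cubn and Amn, which together form the uptake receptor cubam, thus went opposite ways, Cubn from 24.6 and 16.6 to 6.92 and 5.6 CPM (log2 fold change -1.71, adjusted p = 0.000862) and Amn from 0.138 and 0.145 to 7.54 and 2.02 CPM (log2 fold change 5.07, adjusted p = 0.000482). Cdh1 was not called without XEN replicate 1 (1.25) or Day 28 replicate 1 (1.18), nor in cells under 2.5% mitochondrial UMIs (0.27). The endocytic adaptor Dab2 was not called at 235 and 160.4 and 159 and 149.6 CPM.

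Basement membrane genes were called in a share near that of all genes. Of 18 tested, Fn1 and Agrn rose, P4ha1 fell and 15 were not called, beside 21.8% of all genes called, and the list median was 0.02. The collagen IV chains Col4a1 (3172 and 2368 CPM in XEN and 2235 and 2545 at Day 28) and Col4a2 (1972 and 1493 and 1224 and 1587 CPM) and the collagen chaperone Serpinh1 (1569 and 1155 and 1691 and 1597 CPM) were among the uncalled. Against Day 7, the laminin genes Lama1, Lamb1 and Lamc1 with Nid1 and Plod1 were higher and Lama5 was lower. Fn1, at 4.64 and 6.47 CPM in XEN and 17.3 and 10.1 at Day 28, was not called without Day 28 replicate 1 (0.86) or XEN replicate 1 (1.10), Agrn without XEN replicate 2 (0.995) and P4ha1 without Day 28 replicate 2 (-1.12). Of 14 parietal endoderm genes, Srgn and Krt19 rose and 12 were not called, with a list median of -0.32. At an unadjusted p under 0.05, 6 of the 14 were lower and 2 higher, and DESeq2 called 1 lower and 2 higher. Srgn, the proteoglycan serglycin, was at 557 and 709 CPM in XEN, 558 and 925 at Day 7, 1154 and 1158 at Day 14 and 1683 and 1846 at Day 28, highest in both Day 28 libraries (log2 fold change 1.48 against XEN, SE 0.28, adjusted p = 0.00336). The keratin gene Krt19 went from 0.932 and 2.25 to 79.4 and 30.0 CPM (log2 fold change 5.10, adjusted p = 0.000245).

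Visceral endoderm genes split. Of 15 tested, 6 rose against XEN (Ttr, Apoa4, Apoe, Trf, Lefty1 and Fgb), 3 fell (Afp, Rbp4 and Spink1) and 6 were not called, with a list median of 1.62. Ttr, the thyroxine carrier transthyretin, was at 58.6 and 49.6 CPM in XEN, 104 and 237 at Day 7, 349 and 446 at Day 14 and 409 and 306 at Day 28. XEN was the lowest group, and Day 14 and Day 28 overlapped. The log2 fold change against XEN was 2.72 (SE 0.37, adjusted p = 0.000487). Apoe, an apolipoprotein, stood at 8.83 and 12.3, 120.1 and 298, 313 and 464 and 547 and 438 CPM in the same order (log2 fold change 5.54 against XEN, adjusted p = 2.86e-05). Rbp4, the retinol carrier, was at 71.6 and 129.6 CPM in XEN, 225 and 272 at Day 7, 176 and 108 at Day 14 and 36.9 and 29 at Day 28, the lowest of all groups. It was lower than in XEN (log2 fold change -1.61, adjusted p = 0.00483), than at Day 7 (-2.91, adjusted p = 0.00142) and than at Day 14 (-2.10, adjusted p = 0.0373). In cells under 2.5% mitochondrial UMIs neither the call against XEN (-1.28, adjusted p = 0.0504) nor that against Day 14 (-1.93, adjusted p = 0.557) held. Spink1, a protease inhibitor, fell from 669.9 and 479 CPM in XEN to 118 and 129 (log2 fold change -2.22, adjusted p = 0.000265) and was already at 86.5 and 121 CPM at Day 7.

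Gastrokine genes, which encode secreted proteins of the stomach lining, rose strongly. Gkn1 (chr6:87345650-87350942 on GRCm38) was at 39.2 and 134 CPM in XEN, 15.4 and 16.1 at Day 7, 449 and 247 at Day 14 and 754 and 2181 at Day 28, and its neighbour Gkn2 (chr6:87373357-87379497) at 127 and 228, 34.3 and 32.5, 1116 and 411 and 1036 and 3266 CPM. Gkn1 was highest in both Day 28 libraries, while for Gkn2 Day 14 replicate 1 lay above Day 28 replicate 1, and for both genes Day 28 replicate 2 was the higher duplicate. Log2 fold changes were 4.08 (SE 0.64, adjusted p = 0.00106) and 3.60 (SE 0.60, adjusted p = 0.00149) against XEN. Of the 5 tested genes of this list, Gkn1, Gkn2 and Tff2 rose and none fell, also at an unadjusted p under 0.05 and by DESeq2. Tff1, a trefoil factor of the same mucosa, varied from 4.1 and 59.7 CPM in XEN to 51.5 and 161 at Day 28 and was not called, except without XEN replicate 2 (4.69) and without a filter on low counts (1.67).

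**Figure D3:**
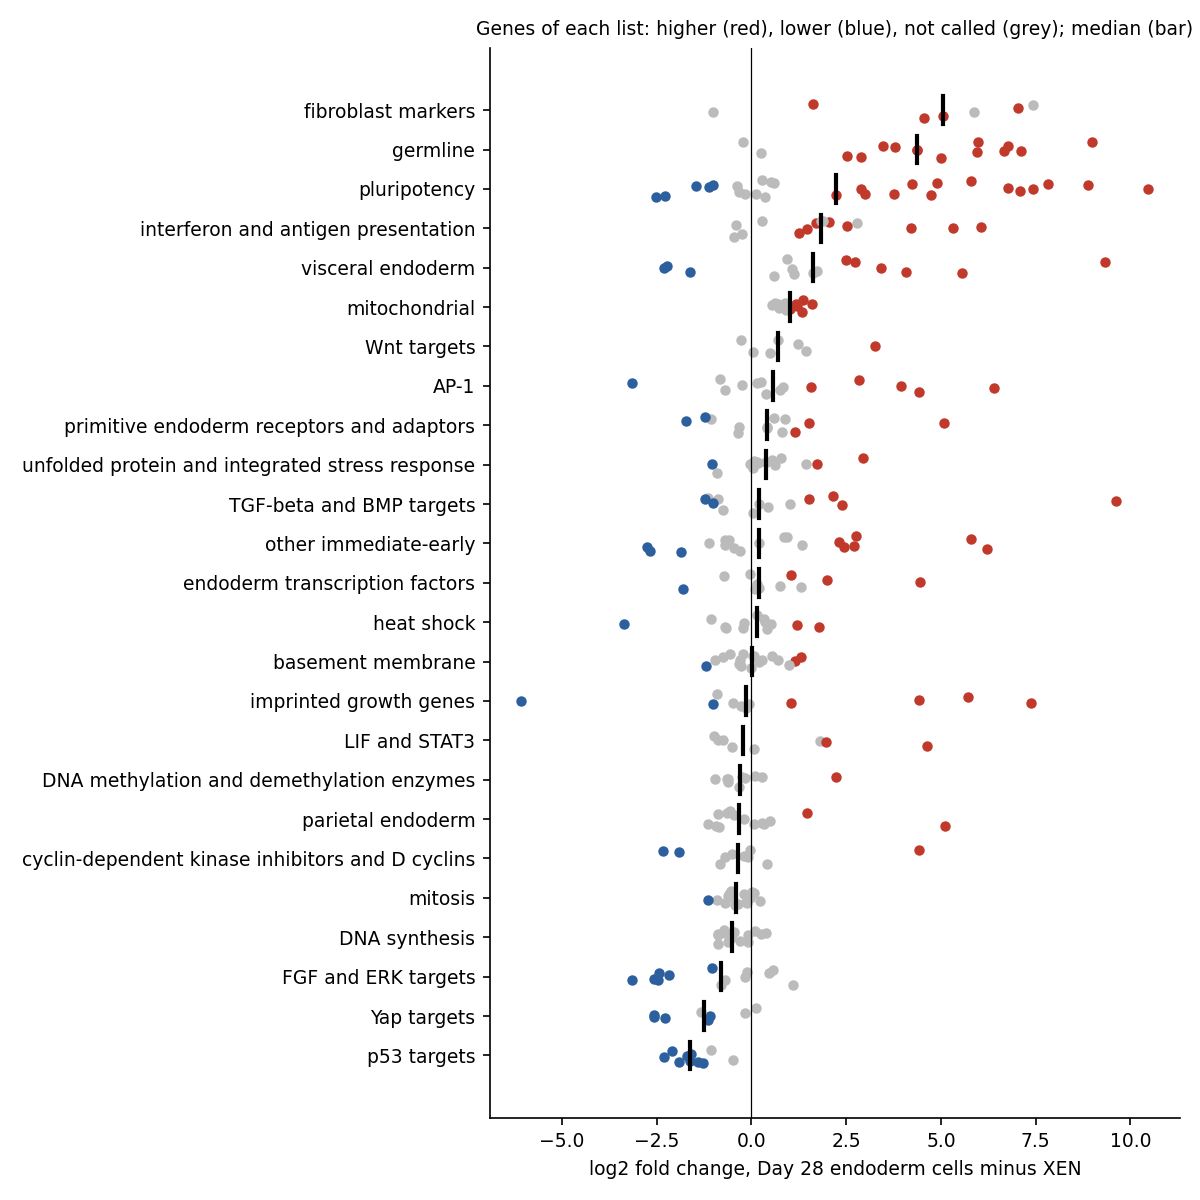
Log2 fold change of Day 28 endoderm cells against XEN for each tested gene (point) of the gene lists with at least 7 tested members, coloured where called higher (red) or lower (blue), with the list median (bar). Germline genes lie to the right with a median of 4.37, and fibroblast markers with 5.06. Members of both lists near 0 in XEN could pass the filter on low counts only through the later groups. These 2 medians therefore support no direction. The p53 targets lie to the left with a median of -1.61, and basement membrane genes centre on 0.02. Points of genes without any XEN UMI depend on the fit.

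Pluripotency genes other than those of the rule moved in both directions. Of 27 tested, 14 rose against XEN, 5 fell (Tbx3, Lin28a, Sall4, L1td1 and Zscan10) and 8 were not called, with a list median of 2.23. The count is no independent evidence of direction, because the rule removed cells by 3 genes of the same program. Against Day 14, Esrrb, Dppa3 and Utf1 were higher (log2 fold changes 4.86, 4.82 and 3.32). These calls were lost without any 1 of the XEN, Day 14 or Day 28 libraries (4.78 to 4.92, 4.23 to 5.44 and 3.03 to 3.53). They were also lost in cells under 2.5% mitochondrial UMIs (4.86, 4.74 and 2.66). Against Day 7, 11 were higher and 1 was lower. Levels were set beside those of the pluripotency-marked cells (770 and 319 cells with 2 or more UMIs of Pou5f1, Nanog and Zfp42 together and none of Gata4 or Gata6) for the list genes with at least 30 unscaled CPM there. The median gene stood at 4.87% and 4.67% of their level, and 12 of 22 and 12 of 23 genes stood under 6%. The lowest were Sox2 at 0.736% in replicate 1 and Fgf4 at 0.543% in replicate 2. In cells with UMIs of both programs the medians were 37.3% and 30.5%. Free RNA in the droplets, which gives UMIs of a gene to cells that do not express it, may reach such low levels, and its part was not tested.

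Tet1, Tfcp2l1, L1td1, Tbx3, Dppa5a, Trim28, Mybl2, Dnmt3b, Sall4 and Klf4 stood over 6% in both libraries. Dppa5a, an RNA-binding protein of pluripotent cells, was at 1062 and 448.2 unscaled CPM in the endoderm cells and 4098 and 5085 in the pluripotency-marked cells, 25.9% and 8.81%. Per library its normalised level was 0.471 and 0.572 CPM in XEN, 184 and 149 at Day 7, 226 and 209 at Day 14 and 1059.7 and 429.6 at Day 28. It was the largest rise of all well-expressed genes against XEN, by 10.47 on the log2 scale (SE 0.54, adjusted p = 2.1e-06), although counting may have been shared with near-identical copies. Thinned to 2000 UMIs, 44.6% and 29.8% of the Day 28 cells had a Dppa5a UMI, beside 98.2% and 99.4% of the pluripotency-marked cells and 0.167% and 0.0617% of XEN cells, and the top 10% of cells by this gene held 59.5% and 69.9% of its UMIs. Klf4 was at 220.6% and 318.5% of its level in the pluripotency-marked cells. The cassette also encodes Klf4 and Sox2, and its transcripts were not told apart from those of the endogenous genes. Between XEN and Day 28 it was not called, at 157 and 143 and 187 and 266 CPM. Sall4, which primitive endoderm also uses, fell from 183 and 171 CPM in XEN to 67.6 and 61.4 (log2 fold change -1.46, adjusted p = 0.000563).

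**Figure D4:**
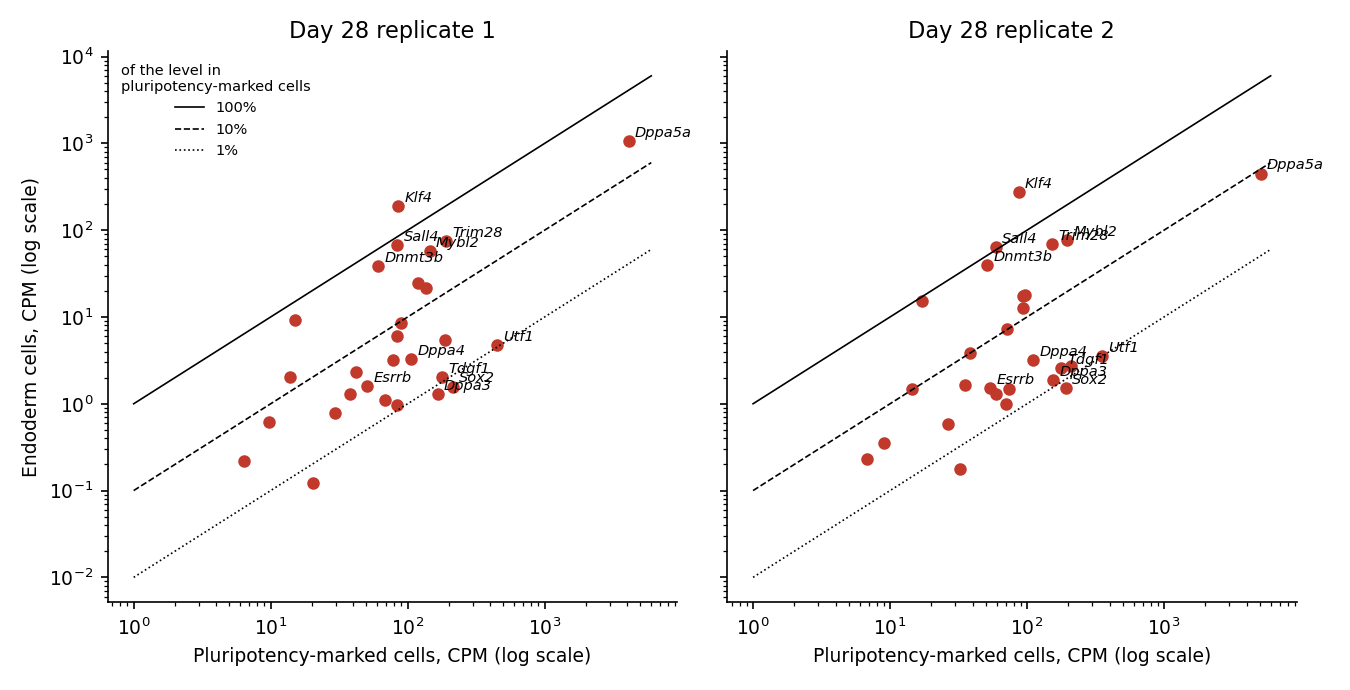
Level of the genes of the pluripotency list in the Day 28 endoderm cells (vertical axis) and in the pluripotency-marked cells of the same library (horizontal axis), both in unscaled CPM on log scales, with lines at 100%, 10% and 1%. Most genes lie between the 10% and 1% lines, Dppa5a at 25.9% and 8.81%, and Klf4 above the 100% line.

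Germline genes, most of which are kept silent in somatic cells by DNA methylation, were mostly higher among those tested. Of the 20 listed, 15 passed the filter on low counts, and 13 of these rose against XEN, beside 13.9% of all genes, and none fell, also at an unadjusted p under 0.05 and by DESeq2, with a list median of 4.37. Members near 0 in XEN could pass the filter only through the later groups, so the count and the median describe the tested genes and support no direction of the list. The homeobox gene Rhox9 of the X chromosome was at 0.102 and 0.136 CPM in XEN, 15.4 and 17.7 at Day 7, 38.4 and 19.8 at Day 14 and 88.2 and 34.5 at Day 28 (log2 fold change 8.99 against XEN, SE 0.60, adjusted p = 8.12e-06). Day 7 already lay above XEN, and Day 14 replicate 1 above Day 28 replicate 2. In the pluripotency-marked cells of Day 28 Rhox9 stood at 52.8 and 43.3 unscaled CPM beside 88.3 and 36.0 in the endoderm cells. Rhox6 was at 13.6 and 16.8 CPM in XEN and 161 and 63.2 at Day 28 (log2 fold change 2.89, adjusted p = 0.00039), and Asz1, a piRNA pathway gene, at 0.0185 and 0.0636 and 7.14 and 4.87 CPM (log2 fold change 7.12, adjusted p = 1.62e-05). Rhox5 was not called at 93.9 and 233 and 184 and 98 CPM. The Rhox genes are close copies of each other, and reads may have been split among them. Of the 10 enzymes of DNA methylation and demethylation, Dnmt3l alone rose, from 0.498 and 0.781 to 2.35 and 3.7 CPM, a call lost without Day 28 replicate 2 (1.87), XEN replicate 1 (1.95) or XEN replicate 2 (2.58). Dnmt1 (57.9 and 56.7 and 44.9 and 28.9 CPM), Uhrf1 (57.1 and 47.9 and 42.9 and 25.1 CPM) and Dnmt3b (60.4 and 36.3 and 38.6 and 38.4 CPM) were not called. Uhrf1 was called lower without Day 28 replicate 1 (-1.07).

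Growth signalling lists were lower or mixed, and each statement below that no member rose held also at an unadjusted p under 0.05 and by DESeq2. Of 13 targets of FGF and ERK signalling, 6 fell against XEN (Dusp4, Dusp5, Spry4, Etv4, Fosl1 and Phlda1) and none rose by this test, with a list median of -0.80. The phosphatase gene Dusp4, which switches ERK off, was at 13.1 and 32.7 CPM in XEN and 3 and 5.6 at Day 28 (log2 fold change -2.44, adjusted p = 0.00222), with Day 7 at 3.77 and 4.84 and Day 14 at 2.72 and 2.24. Phlda1 fell from 120.2 and 253 to 40.6 and 42.5 CPM (log2 fold change -2.17, adjusted p = 0.000679). Of 8 tested Yap targets, 5 fell (Ankrd1, Amotl2, Ajuba, Axl and Lats2) and none rose by this test. Ajuba, a scaffold at cell junctions, went from 54 and 66 to 9.82 and 15.1 CPM (log2 fold change -2.28, adjusted p = 0.000165). The calls of Ankrd1 and Amotl2 were lost without Day 28 replicate 1 (-1.75 and -0.79), and those of Ankrd1 and Axl without XEN replicate 2 (-1.05 and -2.00). Cyr61, named CYR61 in the files, was not called at 178 and 269 and 232 and 258 CPM. Of 13 TGF-beta and BMP targets, 4 rose and 2 fell, and of 7 Wnt targets Axin2 rose, from 1.74 and 0.563 to 11 and 11.1 CPM (log2 fold change 3.26, adjusted p = 0.000467). Axin2 is a general Wnt feedback gene, and all groups were grown with a GSK3 inhibitor. Of 8 genes of the LIF and STAT3 pathway, Socs3 and Bcl3 rose, Socs3 from 21.1 and 10.5 to 67.2 and 56.3 CPM (log2 fold change 1.96, adjusted p = 0.00427). The other 6 were not called, beside 21.8% of all genes called, and the list median was -0.23. At an unadjusted p under 0.05, 4 of the 8 were lower and 3 higher.

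DNA synthesis and mitosis genes held 1 call with all libraries. None of 16 DNA synthesis genes was called against XEN by edgeR or DESeq2, although 6 were lower and 0 higher at an unadjusted p under 0.05, and of 16 mitosis genes only Cenpf fell, a call lost without XEN replicate 1 (-1.03) or Day 28 replicate 2 (-0.77). Without Day 28 replicate 1, Birc5 (-1.49), Top2a (-1.21), Gins2 (-1.19) and Rrm2 (-1.39) were called lower, and Gins2 was also called in cells thinned to 2000 UMIs (-1.06). The list medians were -0.50 and -0.39, and Day 28 replicate 2 was the lower of the duplicates, with Top2a at 231 and 135 CPM in XEN and 146 and 79.3 at Day 28. Of the 10 cyclin-dependent kinase inhibitors and D cyclins, Ccnd2 fell from 373 and 683 to 127 and 84.8 CPM (log2 fold change -2.32, adjusted p = 0.00088) together with Cdkn1a, and Cdkn1c rose from 0.305 and 0.2 to 6.7 and 4.2 CPM.

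Genes of the interferon response and antigen presentation rose against XEN in 8 of 15 tested and fell in none, with a list median of 1.84, but against Day 7 none was higher and 7 were lower. Both counts of 0 held at an unadjusted p under 0.05 and by DESeq2. Ifitm3, a membrane protein against viral entry, was at 0.877 and 0.926 CPM in XEN, 193 and 156 at Day 7, 69.3 and 104 at Day 14 and 87.8 and 31.8 at Day 28, so that XEN was the low group (log2 fold change 6.05 against XEN, adjusted p = 2.14e-05; -1.54 against Day 7, adjusted p = 0.0345). B2m, the light chain of MHC class I, was at 191 and 422, 584 and 968, 675 and 539.7 and 710.2 and 754 CPM in the same order, and its call against XEN (log2 fold change 1.26, adjusted p = 0.0265) was lost without Day 28 replicate 1 (1.29), Day 28 replicate 2 (1.21) or XEN replicate 1 (0.80). In the pluripotency-marked cells of Day 28, B2m stood at 52.1 and 37.1 unscaled CPM, beside 711 and 786 in the endoderm cells.

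Of 11 imprinted growth genes, 4 rose (Cdkn1c, Igf2, H19 and Igf2r) and 2 fell (Phlda2 and Peg3). Peg3 was not called without XEN replicate 1 (-0.997) or Day 28 replicate 2 (-0.88), nor in cells thinned to 2000 UMIs (-0.92). Phlda2, which restrains placental growth, showed the largest fall of all well-expressed genes. It was at 109 and 201 CPM in XEN, 5.39 and 5.47 at Day 7, 4.6 and 6.4 at Day 14 and 3 and 1.46 at Day 28 (log2 fold change -6.07 against XEN, SE 0.42, adjusted p = 9.89e-06). All reprogramming groups were far below XEN, and Day 28 below both others. With cells thinned to 2000 UMIs, a Phlda2 UMI was found in 0.7% and 0.173% of the Day 28 cells and 16.5% and 26.6% of the XEN cells. H19, a maternally expressed long RNA, went the other way, from 0.729 and 0.345 CPM in XEN to 59.8 and 91.1 at Day 7, 54.4 and 132 at Day 14 and 37.8 and 18.5 at Day 28 (log2 fold change 5.71 against XEN, adjusted p = 8.4e-05).

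Among genes with at least 50 CPM in the higher group, the 10 largest rises against XEN were Dppa5a, Htra1, Rhox9, Spp1, Aifm3, Nupr1, Aqp1, Egr1, Ifitm3 and Defa29. The secreted protease gene Htra1 was at 0.0646 and 0.182 CPM in XEN, 6.55 and 10.6 at Day 7, 16.9 and 21.3 at Day 14 and 97.4 and 46.3 at Day 28 (log2 fold change 9.16, SE 0.57, adjusted p = 5.46e-06). Spp1, the matrix phosphoprotein osteopontin, was at 0.212 and 0.445, 12.3 and 29.5, 29.7 and 16.1 and 60.9 and 47.2 CPM (log2 fold change 7.35, adjusted p = 1.62e-05). Nupr1, a stress-induced chromatin protein, was at 2.54 and 7.85 CPM in XEN and already at 279 and 357 at Day 7, with 363 and 579 at Day 28 (log2 fold change 6.50, adjusted p = 0.000175). Aifm3, a mitochondrial relative of apoptosis-inducing factor, was likewise at 0.369 and 0.309 CPM in XEN, 77.3 and 74.8 at Day 7 and 73.6 and 32.2 at Day 28 (log2 fold change 7.28, adjusted p = 4.31e-06). For Aifm3 and Nupr1 the change thus lay between XEN and Day 7, and Day 28 overlapped Day 14. Defa29, of the alpha-defensin family with many close copies, was at 1.27 and 0.926 CPM in XEN and 69.1 and 56.7 at Day 28.

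The 10 largest falls were Phlda2, Cryab, Bex1, Hspb2, Nrg1, Timp2, Flrt2, Tnfrsf12a, Pea15a and Gnai1. Bex1 was at 1279 and 2882 CPM in XEN, 1585 and 1805 at Day 7, 641 and 509 at Day 14 and 221 and 296 at Day 28, with Day 7 overlapping XEN and Day 28 lowest (log2 fold change -3.01 against XEN, SE 0.38, adjusted p = 0.000297). Nrg1, a ligand of ErbB receptors, was at 76.8 and 108, 20.7 and 26.2, 15.3 and 9.98 and 12.3 and 12.8 CPM (log2 fold change -2.88, adjusted p = 6.44e-05). The G protein subunit gene Gnai1 was at 112 and 91.9 CPM in XEN and lowest at Day 7, at 8.99 and 7.19, with 15.3 and 18.7 at Day 28 (log2 fold change -2.59, adjusted p = 4.81e-05). Tnfrsf12a, the receptor of the cytokine TWEAK, fell from 150.2 and 558 to 58.2 and 53.1 CPM (log2 fold change -2.67, adjusted p = 0.00235).

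Against Day 14, which was sorted and dissociated like Day 28 but sequenced in another project, 31 genes were higher and 5 lower, and 1404 had an unadjusted p under 0.05. The count was small and moved with the method, since DESeq2 called 236, and leaving out Day 28 replicate 1 left 5 and Day 28 replicate 2 left 4. In cells under 2.5% mitochondrial UMIs edgeR called 0 genes, with 819 at an unadjusted p under 0.05, so that every call named here ended there. Of genes with 50 CPM or more, Tspan8 and Aqp1 rose and Rbp4 fell. Tspan8, a membrane tetraspanin, was at 17.6 and 18.7 CPM in XEN, 3.07 and 1.29 at Day 7, 7.4 and 6.98 at Day 14 and 51.9 and 61.6 at Day 28 (log2 fold change 2.98 against Day 14, SE 0.32, adjusted p = 0.00568), so that it was lowest at Day 7. Aqp1, a water channel, was at 0.988 and 0.618, 4.06 and 2.13, 9.27 and 11.4 and 51.2 and 71.9 CPM (log2 fold change 2.57 against Day 14, SE 0.33, adjusted p = 0.0176). Tspan8 was not called without Day 28 replicate 2 (2.85), Aqp1 without any 1 of the Day 14 or Day 28 libraries (2.30 to 2.79), and Rbp4 without Day 14 replicate 1 (-1.71), Day 28 replicate 1 (-2.29) or Day 28 replicate 2 (-1.95), or with a replicate block (-2.11). The genes that follow were chosen after their values were seen. Hamp2, a hepcidin, had the lowest adjusted p, with 1.51 and 0.938 CPM at Day 14 and 41.2 and 47.2 at Day 28 (log2 fold change 5.20, adjusted p = 7.19e-05). Ebf1, a factor best known in B cells, went from 4.68 and 4.92 to 28.6 and 38.4 CPM (adjusted p = 0.00568). Ebf1 was not called without Day 28 replicate 2 (2.57), and Hamp2 kept its call without each 1 of the 8 libraries. The cells under 2.5% mitochondrial UMIs numbered 407 and 90 at Day 28. There the log2 fold changes against Day 14 were 2.56 for Tspan8, 2.06 for Aqp1, -1.93 for Rbp4, 3.23 for Hamp2 and 2.17 for Ebf1.

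Clustering the 2291 cells on genes other than those of the rule gave 7 clusters, which stay unnamed and are described by their leading genes without a test. Clusters 1, 2, 3 and 7 were nearly all of replicate 1 and cluster 4 of replicate 2, so that these may mark libraries rather than types, and clusters 5 and 6 held cells of both. Cluster 1 had 565 cells, 551 of replicate 1, and was led by genes of cell division (Tpx2, Ube2c, Birc5, Cdc20 and Cenpf). Cluster 2 had 303 cells led by Stc2, Pgam2, Ckmt1, Htra1 and Igf1, and cluster 3 had 334 cells led by Egln3, Slc16a3 and Bnip3, genes known to answer low oxygen. Cluster 4 had 270 cells, 250 of replicate 2, with the highest median depth, 29607.5 UMIs, and was led by Chac1, a histone gene and ribosomal protein genes.

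Clusters 5 and 6 differed most in the AP-1 sum in both libraries. Cluster 5, with 318 and 53 cells, was led by the carbonic anhydrase gene Car4, the tight junction genes Cldn7 and Cldn6, H19 and Rhox9, and had Dppa5a at 2317 and 2695 unscaled CPM, an AP-1 sum of 873.0 and 839.0 CPM, and Gkn1 and Gkn2 together at 164.3 and 248.9 CPM. Cluster 6, with 123 and 243 cells (7.18% and 42.1% of the libraries), was led by Gkn1, Gkn2, Hamp2, Clu and Plet1. It held 17949 and 15169 CPM of both gastrokines, an AP-1 sum of 2955 and 2618 CPM and Sparc at 11433 and 10672 CPM, and its cells had little of the proliferation genes Mki67 and Top2a, 8.50 and 18.5 CPM together, against 222 and 67.7 in cluster 5. The high gastrokine level of replicate 2 thus went with the larger share of this cluster. Outside it, the AP-1 sum was lowest in cluster 5 and stayed above the XEN libraries' 302.19 and 457.09 CPM in every cluster of both libraries.

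Sorted into quartiles by gastrokine level within each library, the AP-1 sum was 1416, 1165, 1600 and 2207 CPM from the lowest to the highest quartile in replicate 1 and 986.3, 1235, 1935 and 2919 in replicate 2. Mki67 and Top2a together fell from 217.6 to 105.6 CPM and from 127.9 to 35.4 CPM between the lowest and the highest quartile. Median depth also differed between the lowest and highest quartile, with 17694 against 15077.5 UMIs in replicate 1 and 30518 against 22554.5 in replicate 2. Gkn1 was concentrated in few cells, the top 10% of cells holding 80.3% and 71.9% of its UMIs, against 29.4% and 28.3% for Jun.

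**Figure D5:**
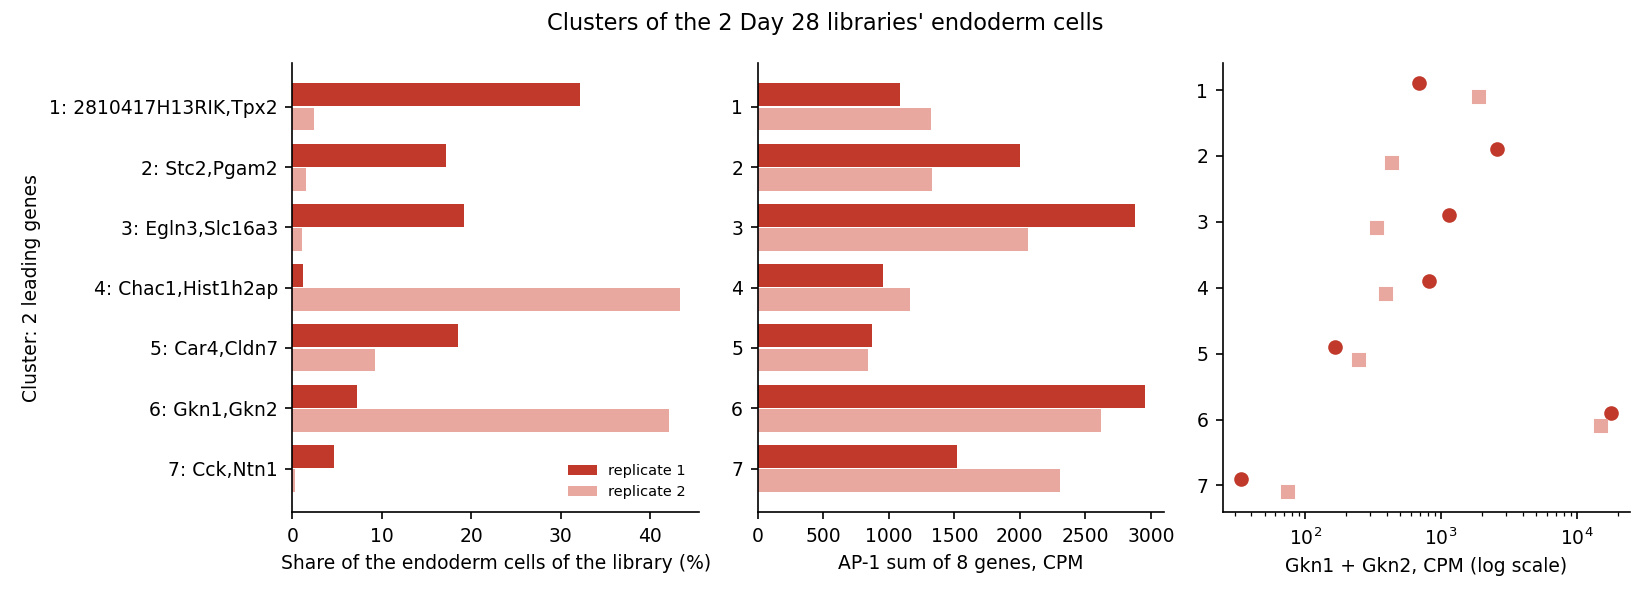
The 7 clusters of the Day 28 endoderm cells (rows, with 2 leading genes), showing the share of the cells of each library (left, bars from 0), the summed unscaled CPM of 8 AP-1 genes (middle, bars from 0) and of Gkn1 and Gkn2 (right, log scale) for replicate 1 and replicate 2. Cluster 6 takes 7.18% of replicate 1 and 42.1% of replicate 2 and has the highest gastrokine level in both. Clusters 1, 2, 3 and 7 rest on 14, 9, 6 and 2 cells in replicate 2, and cluster 4 on 20 in replicate 1.

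Cluster 7 stood apart by sex-linked RNA. It had 82 cells, 80 of replicate 1, led by Cck, Ntn1 and Hmga2, and 77.5% of those 80 cells had a Y-linked UMI, against at most 5% in any other cluster. Its mitochondrial share was the lowest, 1.48% in the median cell, and its AP-1 sum in replicate 1 was 1522 CPM. The Day 28 cells under 2.5% mitochondrial UMIs thus hold a larger share of this cluster than all chosen cells do. In that setting the log2 fold change of the Y-linked gene Ddx3y against XEN was -2.21, beside -3.76 with all chosen cells. The part of cluster 7 in the results of that setting was not tested. Over all chosen cells, Y-linked RNA summed to 33.9 and 26.4 CPM in XEN and 5.28 and 0.392 at Day 28, and Xist to 0.397 and 0.173 against 26.0 and 16.5. Leaving out every cell with a Y-linked UMI, 2844 genes were called against XEN, 2676 of them also called with all cells, and Jun, Fos, Fosb and Junb kept their calls with log2 fold changes of 2.83, 4.34, 3.89 and 1.46. Amotl2 (-0.92), Ankrd1 (-2.28), Hspb1 (1.39), Ddit4 (-0.96), Prrx1 (4.12) and Twist1 (1.44) lost theirs. This setting kept 4298 and 3433 XEN cells. It cannot remove the difference in sex-linked RNA, since a cell without a Y-linked UMI may still carry a Y chromosome. Of 487 X-linked genes tested, 31.4% were called against XEN, beside 21.3% of 12743 autosomal genes.

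Markers of 3 other cell types were summed. The 10 fibroblast markers, checked because the cells were grown on fibroblast feeders, summed to 0.24 to 0.645 CPM in XEN and 1.12 to 4.73 CPM at Day 28, with Lum at 0 there, and 3 and 0 Day 28 cells had 5 or more collagen UMIs. Of the 7 tested, Col1a2, Postn, Prrx1 and Twist1 were called higher at these low levels, and each call was lost without some library. For Col1a2 this was Day 28 replicate 1 (2.93), XEN replicate 1 (4.36) or XEN replicate 2 (6.38), and for Postn the same libraries. For Prrx1 it was either XEN library, and without Day 28 replicate 1 its sign turned (-3.58). Day 28 replicate 2 held no Prrx1 UMI. For Twist1 it was any of the 8. The calls of Col1a2 and Prrx1 also ended with a replicate block (4.44 and 3.68) and without the cells with 5 or more collagen UMIs (3.80 and 3.12). Col1a2 UMIs count towards that collagen limit, so the latter setting is no check of Col1a2. The 10 trophoblast markers summed to 7.02 to 10.2 CPM in XEN and 12.1 to 12.8 at Day 28, none of the 3 tested was called by edgeR or DESeq2 with all libraries (1, Krt7, was higher at an unadjusted p under 0.05), and Hand1, Gcm1, Prl3d1 and Tpbpa had no UMI at Day 28. Krt7 was just outside the threshold, and was called higher in 8 alternative settings, among them thinned cells (2.11) and without XEN replicate 2 (3.36). The 8 blood and endothelial markers summed to 43.6 to 44.2 CPM in XEN and 66.4 to 67.0 at Day 28, most of it Cdh5, an adhesion gene of endothelium at 41.4 and 42.3 CPM in XEN and 62.9 and 63.8 at Day 28, and Ptprc and Hbb-bs had no UMI at Day 28. Of the 5 tested, Lyz2, a macrophage lysozyme, was called higher than in XEN at under 1 CPM in every library, a call lost without Day 28 replicate 1 (2.84) or XEN replicate 1 (2.60), and Cdh5 and Kdr were called higher than at Day 7. Of 13 mitochondrial genes, 7 rose against XEN, among them mt-Co1 from 5118 and 4568 to 11956 and 12651 CPM (log2 fold change 1.35, adjusted p = 0.00259). Without XEN replicate 2 the calls of mt-Atp6 (0.95), mt-Atp8 (1.21) and mt-Nd4l (1.34) were lost, and that of mt-Atp8 also without Day 28 replicate 2 (1.23). In cells under 2.5% mitochondrial UMIs mt-Co1 (0.49), mt-Atp6 (0.48), mt-Atp8 (0.97) and mt-Nd4l (0.85) were not called. These cells were chosen by the UMIs of the mitochondrial genes themselves, so this setting is no check of those genes. Of the other genes with values or calls above, Agrn (0.83), B2m (0.82), Cenpf (-0.84), Col1a2 (3.89), Ddit4 (-0.999), Dnmt3l (1.87), Fosl1 (-3.06), Hspb1 (1.09), Peg3 (-0.92), Prrx1 (3.36), Spry4 (-1.83), Tspan8 (0.89) and Twist1 (1.44) also lost their call against XEN in those cells.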

How the data were processed

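The 8 XEN, Day 7, Day 14 and Day 28 libraries of the series were used, made with the 10x Genomics 3' v2 kit. The authors counted UMIs with SEQC against GRCm38 and deposited whole-number counts per gene and cell without normalization, after removing cells with over 20% mitochondrial molecules. The other 12 libraries enter only the number of cells.

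Endoderm cells, gene lists and promoters were chosen with earlier results of these data known. UMIs were summed per library over the chosen cells and fitted with edgeR 4.0.16 (TMM, filterByExpr, quasi-likelihood test, Benjamini-Hochberg over 13558 genes), run in R 4.3.3, where 4 degrees of freedom were left for the spread. Cells were never the unit of a test. Clusters used scanpy 1.11.5 (Leiden), and promoters the RefSeq table. Named were the markers, all AP-1 genes, the 10 highest and 10 lowest changes against XEN and the 5 each way against Day 14 among called genes with at least 50 CPM, and per list the 3 most abundant genes and up to 3 called ones with the largest change. List members named only within a count were taken as called.

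Alternatives were DESeq2 1.42.0, RLE factors, other cell limits, thinning to 2000 UMIs, cells over the collagen limit or called doublets left out, no filter, a replicate block and each library left out. Cells without a Y-linked UMI and cells under 2.5% mitochondrial UMIs were added after seeing the data. The doublet caller marked 0% to 0.233% of cells too few to rely on, and no cell was removed as a doublet. Whether doublets were removed before deposit is not given in the sources used here. Libraries shared few barcodes (68 between the XEN libraries). In simulated sums for Day 28 against XEN (13254 genes), 40% of 2-fold, 98.75% of 4-fold and 100% of 8-fold changes were recovered. Changes were put only into better expressed genes, each drawn with the typical spread for its level. Recovery for low or more variable genes was not tested. Counting intervals cover counting error only. Among same-numbered libraries the correlations of deviations ran from -0.158 to 0.261. With 2 libraries in each group these values cannot exclude a pairing, and the main fit had no replicate block.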

Additional observations from a re-analysis of the deposited data

How the results depend on the processing

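The count of genes called between Day 28 and XEN was 2960 and stayed within 1.5 times under all alternatives except cells under 2.5% mitochondrial UMIs (1880), and without 1 library each it ran from 2184 to 3073. Between Day 28 and Day 14 the count was 36. DESeq2 gave 236, no filter on low counts 491, cells under 2.5% mitochondrial UMIs 0 (819 at an unadjusted p under 0.05) and the replicate block 18, and without 1 library each it ran from 4 (without Day 28 replicate 2) to 52. It was 5 without Day 28 replicate 1, 13 and 10 without Day 14 replicate 1 or 2, and 19 without either XEN library. Between Day 28 and Day 7 the count was 1119, with 610 for cells thinned to 2000 UMIs, 1696 without a filter and 314 for cells under 2.5% mitochondrial UMIs, and from 464 to 1164 without 1 library each. The lowest of these were 464 and 706 without a Day 28 library and 497 and 715 without a Day 7 library. Fewer cells or libraries entered those fits, and beyond that the cause was not tested. The block gave 2962 genes against XEN and 1068 against Day 7. The AP-1 sum at Day 28, 1611.8 CPM, was 1857.6 in thinned cells and 1234.4 in cells under 2.5% mitochondrial UMIs, where the cause was not tested.

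Of 160 genes tested by name against XEN, 101 were called, 64 of them under each of the up to 20 alternatives in which they were tested. Of the 59 uncalled, 18 were called under at least 1, most often Eif2s3y, CTGF, Krt7 and Nog. Among the log2 fold changes that changed sign Prrx1 was called with all libraries, and the cause was not tested. Without cells with a Y-linked UMI they were Batf3 -0.15, Peg10 0.16, Rhox5 0.55, Sox17 0.048 and Sparc 0.079. In cells under 2.5% mitochondrial UMIs they were Batf3 -0.59, Btg1 -0.20, Cdh5 -0.30, CYR61 -0.25, Fosl2 -0.0066, Kdr -0.072 and Stat3 -0.060. Without a filter they were Hsp90b1 -0.023, Stat3 -0.018 and Ube2c -0.012. In thinned cells they were Jdp2 -0.15, Maff 0.26, Sox17 0.074 and Sparc 0.11. Under DESeq2 it was Sparc 0.0089. With RLE factors it was Sparc 0.0089. Without 1 library each, values that crossed 0 ran for Btg1 from -0.018 to 0.45, CYR61 from -0.13 to 0.46, Cited1 from -0.13 to 0.78, Col4a1 from -0.41 to 0.019, Dnmt3b from -0.66 to 0.088, Elf5 from -0.23 to 0.63, Hsp90aa1 from -0.71 to 0.37, Hsp90ab1 from -0.033 to 0.65, Hsp90b1 from -0.19 to 0.35, Jdp2 from -0.28 to 0.86, Kdr from -0.085 to 1.07, Maff from -0.76 to 0.59, Peg10 from -0.29 to 0.13, Prrx1 from -3.58 to 5.63, Rhox5 from -0.74 to 0.58, Sox17 from -0.12 to 0.034, Sparc from -0.13 to 0.093, Stat3 from -0.17 to 0.33 and Ube2c from -0.27 to 0.32. Day 28 replicate 2 held the fewest UMIs in all, and what this does to calls of low genes was not tested.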

Other observations

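By the same rule, 49 of 3970 and 4 of 5742 cells of the XEN-iPS libraries and 2417 of 5327 and 3756 of 6096 cells of the iXEN libraries were endoderm cells. These libraries entered no comparison.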
